A study of Mus musculus with 6 samples.

Results

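The nuclear genes for subunits of the mitochondrial respiratory chain and ATP synthase were followed along the mouse colon. They are the rows of the 6 deposited expression files whose symbols begin as Nduf with a subunit letter and number, Cox4 to Cox8, Uqcr or Atp5, or read Sdha, Sdhb, Sdhc or Sdhd. The rule found 84 of the 24346 listed genes, and it used symbols only, not measured values. By symbol, 37 belong to complex I, 4 to complex II, 8 to complex III, 18 to complex IV and 17 to complex V.

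Epithelial cells came from 3 segments of the large bowel, the proximal, middle and distal colon, in wild-type mice of the inbred strain C57BL/6J, and every group was untreated. Each region has 1 male library (numbered replicate 1 here) and 1 female library (numbered replicate 2 here), so 3 regions of 2 libraries were compared. The labels give neither the ages, nor the number of mice behind a library, nor whether the regions of a sex share mice. The p-values below therefore rest on how far these libraries lie apart, and part of that distance may be technical.

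The respiratory chain sits in the inner mitochondrial membrane and passes electrons from NADH and succinate to oxygen while pumping protons. Complex I oxidises NADH, complex II oxidises succinate, complex III passes electrons to cytochrome c, complex IV reduces oxygen, and complex V uses the proton gradient to make ATP. Colonocytes are known to feed this chain largely by oxidising butyrate made by gut bacteria.

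Values are FPKM, fragments per kilobase of transcript and M mapped fragments. They correct for transcript length, so levels of different genes can be compared, but only approximately. A pseudocount of 1 FPKM was added before taking log2, and genes with at least 1 FPKM in at least 2 libraries were kept, 11815 in all. The deposited FPKM summed to between 546269 and 612818 per library, and the spacing of the lowest values gave about 7.81 to 9.89 M fragments per library. The epithelial label was checked against its markers. Epcam, an epithelial adhesion protein, stood at 743 to 873 FPKM in the 6 libraries and Krt8, a simple-epithelium keratin, at 3318 to 4008 FPKM. Marker lists of other cell types and states were read beside them. The summed FPKM of 7 T cell markers was 20.3 to 50.1 in proximal, 5.33 to 9.33 in middle and 3.44 to 3.85 in distal libraries. The summed FPKM of 8 crypt and proliferation markers was 160 to 169, 110 to 149 and 98.0 to 117 in the same order, with Olfm4 at 0 in all libraries. Pcna made up much of these sums, at 93.5 to 98.9 FPKM in proximal and 60.8 to 63.9 FPKM in distal libraries. Pcna and Ccnb1 fell in distal colon and were called. Lgr5, Mki67, Top2a and Mcm5 had distal below proximal values without overlap and were not called, and Ascl2 overlapped with a log2 difference of 0.015. The summed FPKM of 8 surface colonocyte markers was 18171 to 27987, 11617 to 14154 and 9375 to 10135, with Car1, a carbonic anhydrase, at 19757 FPKM in the male proximal library. That list was mixed: Car1, Guca2a and Ceacam1 fell in distal colon and were called. Krt20 had distal below proximal values without overlap, by a log2 difference of -1.31, and was not called. Slc26a3, Car4, Aqp8 and Saa1 had distal above proximal values without overlap, by log2 differences of 0.80 to 2.22, and were not called. The summed FPKM of 7 goblet markers was 4641 to 5712, 10018 to 14530 and 7102 to 8251, and 4 of the 7 rose (among them Fcgbp) and 2 fell (Muc2 and Spdef) in distal colon. These marker levels move with region, as every regional comparison below does, and their part in the results was not tested. In such bulk samples, fewer cells of a type and less RNA per cell cannot be told apart.

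Most of these genes were abundant in the colon epithelium. Of the 84, 79 were kept, and 71 of these 79 had a mean of at least 100 FPKM over the 6 libraries, against 905 of all 11815 kept genes. The median of the gene means was 286 FPKM for the 79 and 12.1 FPKM for all kept genes. Complex IV had the highest median at 701 FPKM, followed by complex V at 623, complex III at 515, complex II at 253 and complex I at 179 FPKM. Cox6a1, the ubiquitous isoform of an accessory complex IV subunit, had the highest mean level of all members at 1578 FPKM. Together the 84 genes held 5.46 to 5.97% of the summed FPKM of a library. Levels of genes with near-identical copies or overlapping genes are uncertain: 41 of the 83 members found in the GENCODE M21 annotation share at least 1% of their 50-base windows with another gene, and Atp5l and Atp5o share 84.8 and 63.0%. Of the 83, 20 have a longest coding transcript under 600 bases, among them Cox6a1 (571), Uqcrh (547) and Atp5k (371). Whether such short lengths shift the FPKM, and so the ranking of levels, was not tested. The plot of subunit levels by library shows that within a complex most subunits lay close together, with a few far below.

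**Figure D1:**
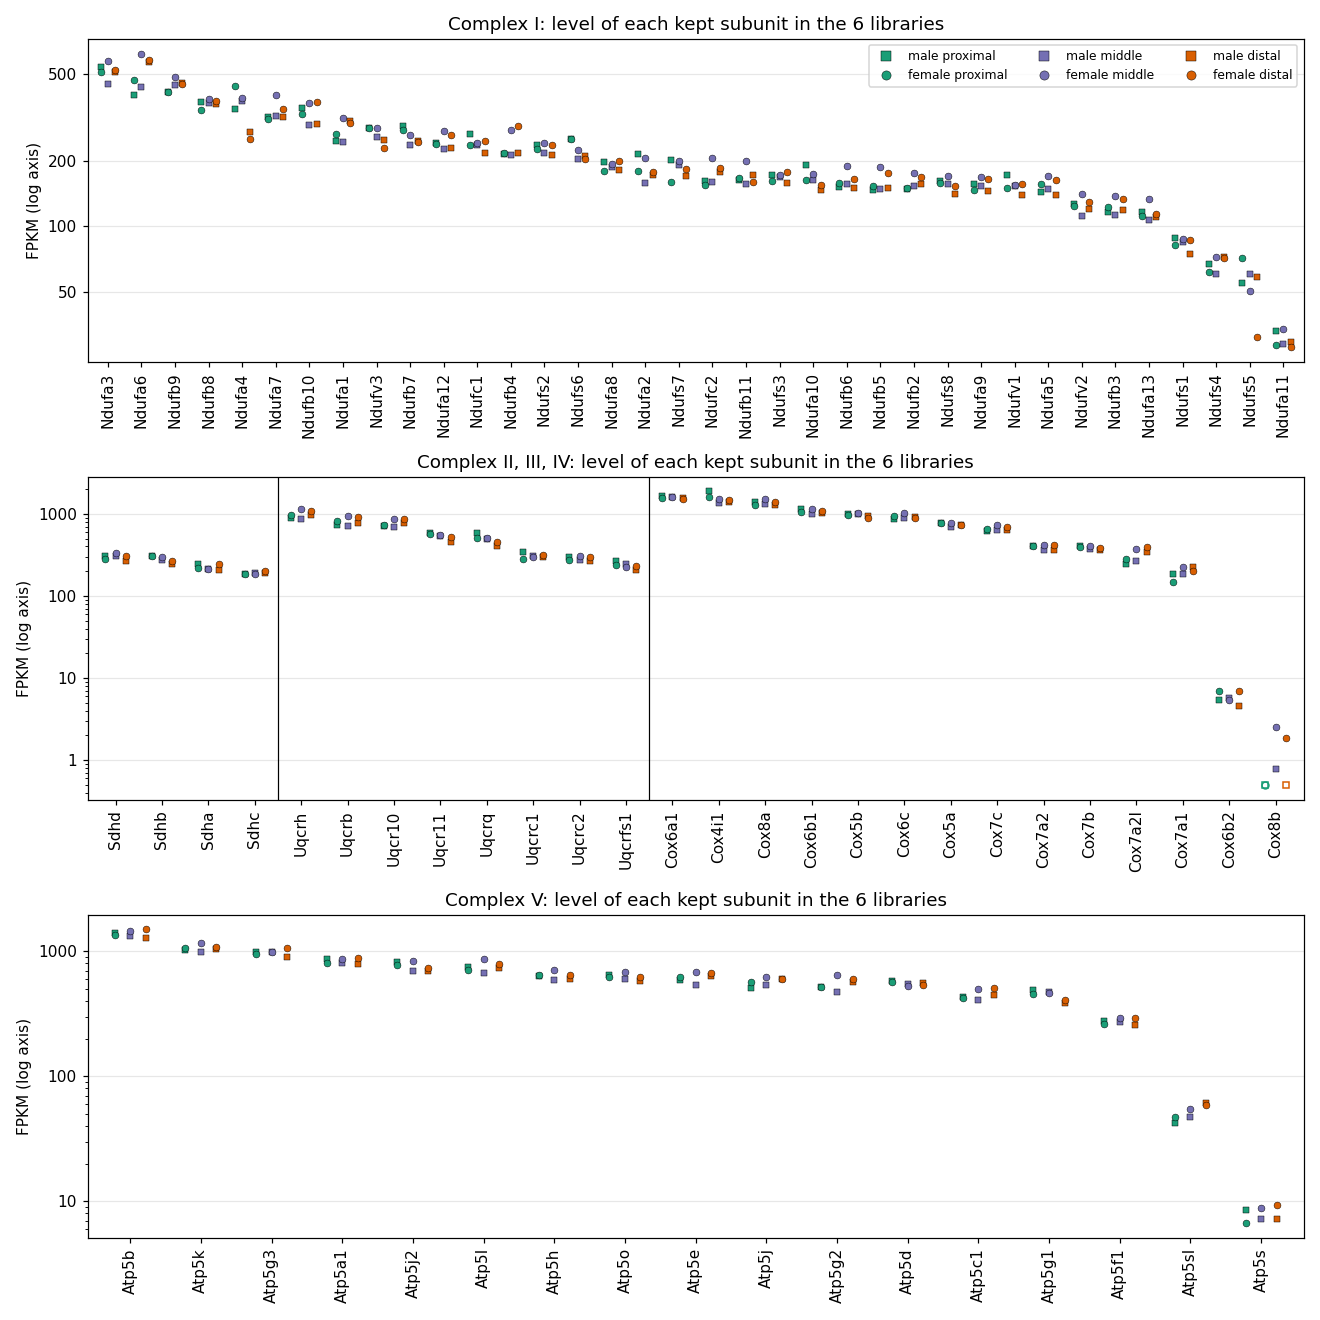
Level of each of the 79 kept subunits in FPKM on a log axis, ordered within each complex by mean level, with squares for male and circles for female libraries and 1 colour per region. Complex I runs from Ndufa3 with a mean of 519 FPKM to Ndufa11 with 30.2 FPKM, while Cox6b2 in complex IV and Atp5s in complex V lie far below their neighbours; open symbols mark Cox8b listed at 0, drawn at 0.5 on this axis.

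The 5 members that did not pass the filter were Cox4i2, Cox6a2, Cox7b2, Cox8c and Ndufa4l2. Cox7b2 and Cox8c, which are known from testis, were listed at 0 in all 6 libraries. Cox4i2, an isoform known from lung, was listed at 0 in 3 libraries and reached 0.242 FPKM. Ndufa4l2, a hypoxia-induced relative of Ndufa4, reached 0.266 FPKM. Cox6a2, a heart and skeletal muscle isoform, was at 0 in both proximal libraries and the male middle library, and reached 1.10 FPKM in the female distal library.

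Many respiratory chain promoters are known to carry sites for the transcription factor NRF1, for Ets-family factors such as GABP, for YY1 and for estrogen-related receptors. To show what these promoters look like, windows from 250 bases before to 50 bases after the start, from RefSeq on GRCm38.p6, were searched on both strands, and 69 of the 84 genes had an entry. The NRF1 motif GCGCANGCG was in 20 of the 69 (29.0%), against 7.03% of all genes in the table. The Ets motif CCGGAAG was in 16 (23.2%, against 9.93%), the YY1 motif AAGATGGCG in 8 (11.6%, against 1.64%) and the estrogen-related receptor motif AAGGTCA in 8 (11.6%, against 5.38%). At least 1 of the 4 was in 37 (53.6%, against 21.2% of all genes), and the members' median GC content was 57.3%, against 52.7% over all entries. Among genes that the expression files list, the shares were 9.70% for NRF1, 12.8% for Ets, 2.19% for YY1 and 4.78% for the receptor motif. At least 1 of the 4 was in 25.6% of them, and their median GC content was 56.7%, close to the members' 57.3%. A match is a description of letters, not a binding site. The 200 bases before the start are printed for 1 gene per complex, chosen for the most matches in that window and, among ties, for the highest mean FPKM (Uqcrh and Atp5h were chosen from ties). Capitals mark matches to any of the 4 motifs.
Ndufb4: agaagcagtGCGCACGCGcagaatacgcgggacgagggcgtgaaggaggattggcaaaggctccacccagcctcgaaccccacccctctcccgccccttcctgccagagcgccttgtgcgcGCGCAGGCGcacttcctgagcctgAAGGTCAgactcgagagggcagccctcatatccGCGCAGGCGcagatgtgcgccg
Sdha: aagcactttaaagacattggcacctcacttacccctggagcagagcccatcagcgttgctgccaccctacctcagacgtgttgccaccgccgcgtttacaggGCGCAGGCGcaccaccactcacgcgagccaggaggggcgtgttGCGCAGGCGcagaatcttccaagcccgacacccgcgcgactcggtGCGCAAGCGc
Uqcrh: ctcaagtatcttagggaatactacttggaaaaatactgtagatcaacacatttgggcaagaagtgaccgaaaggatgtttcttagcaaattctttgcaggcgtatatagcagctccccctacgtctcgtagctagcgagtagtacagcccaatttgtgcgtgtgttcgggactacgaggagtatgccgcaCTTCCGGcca
Cox6a1: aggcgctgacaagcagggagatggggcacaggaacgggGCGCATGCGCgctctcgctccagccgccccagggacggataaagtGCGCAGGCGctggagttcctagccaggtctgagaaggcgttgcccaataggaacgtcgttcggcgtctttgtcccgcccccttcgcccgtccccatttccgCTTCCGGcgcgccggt
Atp5h: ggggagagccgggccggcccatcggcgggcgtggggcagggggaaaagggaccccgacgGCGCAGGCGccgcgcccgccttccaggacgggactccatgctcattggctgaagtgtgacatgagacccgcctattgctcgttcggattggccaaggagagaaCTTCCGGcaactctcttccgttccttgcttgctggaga
All 5 are read 5′ to 3′ on the minus strand of GRCm38.p6. Ndufb4, an accessory subunit of complex I, is at chr16:37654369-37654568 and has NRF1 matches that begin 191, 79 and 22 bases before the start and a receptor match at 55. Sdha, the succinate-oxidising flavoprotein of complex II, is at chr13:74350241-74350440 and has NRF1 matches at 98, 55 and 10. Uqcrh, the hinge protein of complex III, is at chr4:116075071-116075270 and has an Ets match at 10. Cox6a1 is at chr5:115348959-115349158 and has NRF1 matches at 162 and 117 and an Ets match at 16. Atp5h, a stalk subunit of complex V, is at chr11:115419920-115420119 and has an NRF1 match at 141 and an Ets match at 38.

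The main comparison was between the ends of the colon. limma called 0 of the 79 kept subunits between distal and proximal colon at an adjusted p of 0.05, where it called 14.1% of all kept genes and 20.0% of the 905 kept genes with a mean of at least 100 FPKM. At an unadjusted p under 0.05, it marked 6 of the 79 (7.59%), against 29.2% of all kept genes. The median distal minus proximal log2 difference of the 79 was 0.00038, with 40 above 0 and 39 below, and that of all kept genes was 0.0067. This fitted value joins unlike sexes: the male median was -0.099 with 26 of 79 above 0, the female median 0.085 with 53. Male and female differences shared a sign for 58.2% of the 79, against 71.3% of all kept genes. For 66 of the 79 (83.5%) the fitted difference was smaller than 0.25 on the log2 scale, against 56.1% of all kept genes. By the fit, 0 members differed 2-fold or more, against 8.80%. A missed threshold does not show that levels were equal, so the intervals are given. The 95% interval of the difference lay within 2-fold for 77 of the 79 (97.5%), against 79.6% of all kept genes, and within 1.5-fold for 68. The median reach of these intervals was 0.33 to either side on the log2 scale.

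By complex, the median distal minus proximal log2 difference was -0.0011 for complex I, -0.030 for complex II, -0.014 for complex III, -0.048 for complex IV and 0.022 for complex V. How the libraries are scaled moves these small values: with each library rescaled to the same total FPKM, 57 of the 79 subunits were below 0 with a median of -0.064, while the median of all genes went to -0.057. With quantile normalization, 52 were below 0 with a median of -0.070, while the median of all genes was 0.021. The distal and proximal FPKM ranges did not overlap for 35 of the 79 (44.3%), against 60.3% of all kept genes and 72.4% of the 905 abundant ones. Of the 79, distal lay above in 16 and below in 19, where it lay above in 30.8% and below in 29.5% of all kept genes.

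**Figure D2:**
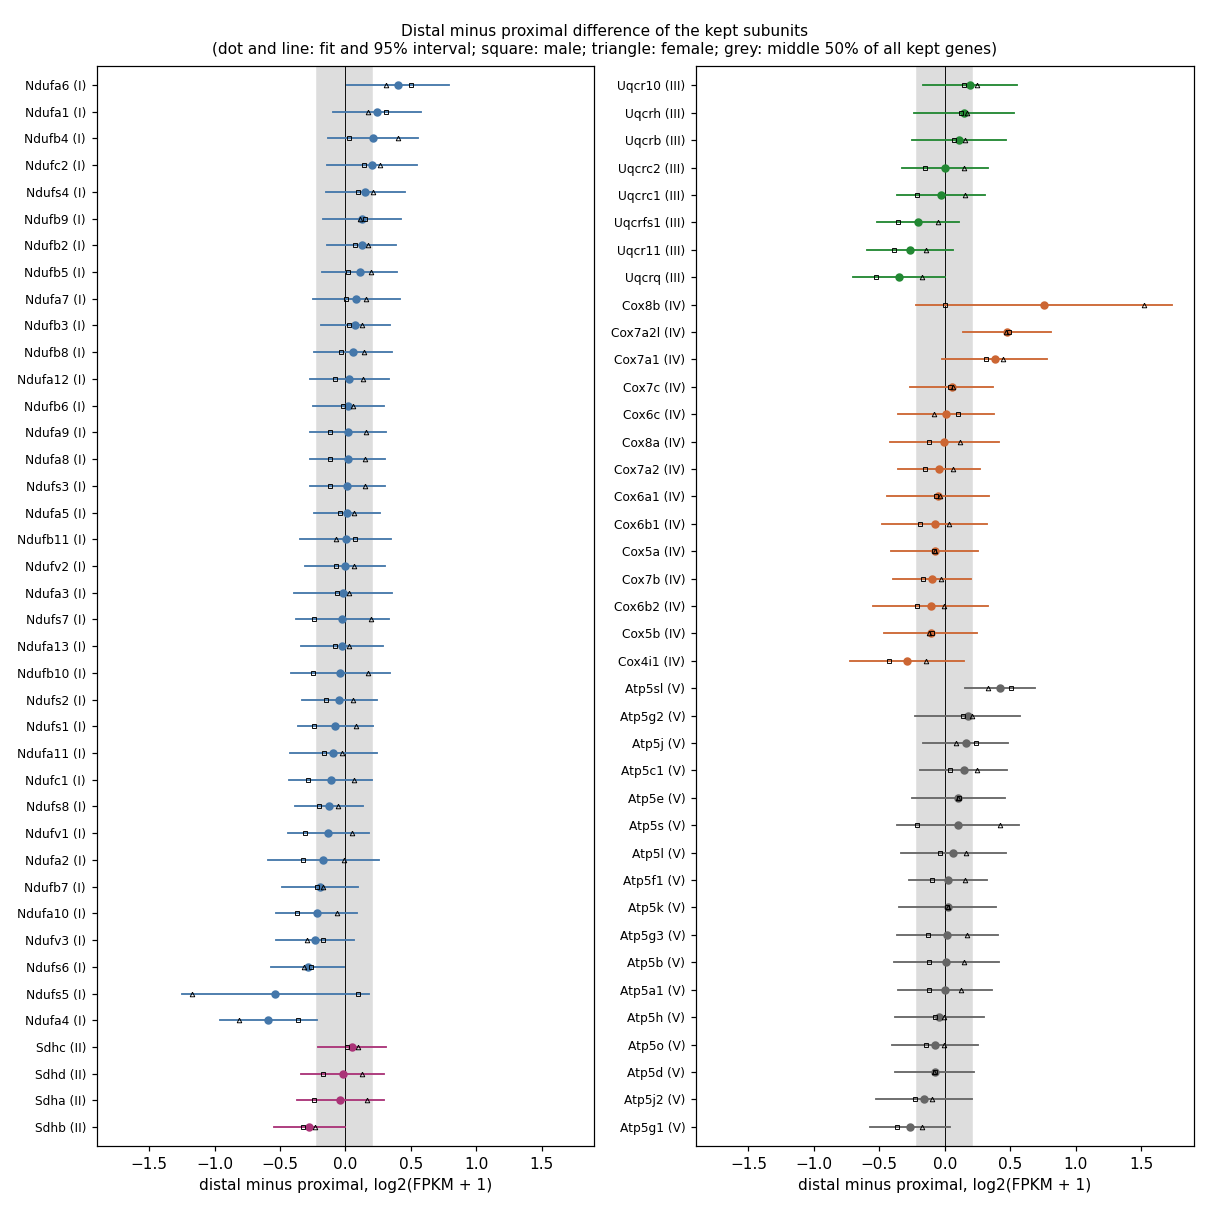
Distal minus proximal difference of each kept subunit on the log2(FPKM + 1) scale: dots with lines are the limma fit with its 95% interval, squares the male and triangles the female difference, and the grey band the middle 50% of all kept genes. Most dots lie inside the band, which runs from -0.21 to 0.21; Ndufa4 lies lowest at -0.59 and Cox8b, near its detection floor, highest at 0.76.

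The spread over all 6 libraries was described in the same way. The median coefficient of variation of FPKM was 7.81% for the 79 subunits, against 14.5% for all kept genes and 13.8% for the abundant ones. By complex it was 8.22% for I, 7.53% for II, 9.68% for III, 6.26% for IV and 7.56% for V. Sdhc and Cox6a1 varied little, by 2.81% and 2.59%.

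The middle colon gave the same count. Against proximal colon limma called 0 of 79, where it called 2.45% of all kept genes. It marked 1 at an unadjusted p under 0.05, against 18.3% of all kept genes. That member was Cox8b (log2 difference 1.32), listed at 0 FPKM in both proximal libraries. The median middle minus proximal log2 difference was 0.031 with 51 of 79 above 0, and with quantile normalization it was -0.0090 with 39 above 0. Between distal and middle colon limma called 0 of 79 and 0.499% of all kept genes. It marked 1 at an unadjusted p under 0.05, against 12.7%. The median distal minus middle log2 difference was -0.024 with 27 of 79 above 0. It was -0.077 with 15 above 0 after quantile normalization and -0.076 with 12 above 0 when total FPKM was rescaled. Without the female middle library it was 0.039 with 51 above 0, and without the male middle library -0.10 with 8 above 0. Single libraries also turned the sign of the other regional medians, which ran from -0.097 to 0.11 for distal minus proximal and from -0.065 to 0.12 for middle minus proximal with each library left out in turn.

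Complex I is the entry point for electrons from NADH, and its 37 listed genes include core subunits and many small accessory ones. Their summed FPKM was 7761, 7360 and 7469 in the male proximal, middle and distal libraries and 7669, 8575 and 7901 in the female ones. The female middle library was highest, and the other 5 lay close together. Ndufa3 and Ndufa6, both accessory subunits, had the highest mean levels, 519 and 515 FPKM. Ndufa3 was at 538, 452 and 513 FPKM in the male proximal, middle and distal libraries and 513, 574 and 523 FPKM in the female ones. Its distal and proximal ranges overlapped, and the log2 difference was -0.02 ± 0.15 (SE).

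Ndufa6 had the highest distal minus proximal difference in complex I. It was at 403, 439 and 570 FPKM in male and 470, 623 and 583 FPKM in female proximal, middle and distal libraries. Distal exceeded proximal in every pairing of libraries. The log2 difference of 0.40 ± 0.16 (SE; 95% interval 0.02 to 0.79) had an adjusted p of 0.16 in limma and was not called.

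Ndufa4 had the lowest. Its symbol places it in complex I, but its protein is known as a subunit of complex IV; the gene lies on chromosome 6 from 11900292 to 11907497 on the minus strand of mm10. It was at 348, 376 and 270 FPKM in male and 444, 390 and 252 FPKM in female proximal, middle and distal libraries. The 2 distal libraries lay below all 4 others. The distal minus proximal log2 difference was -0.59 ± 0.15 (SE; 95% interval -0.96 to -0.22), with an adjusted p of 0.057 in limma, and the male and female differences were -0.36 and -0.82. The call turned with the setting: the adjusted p was 0.042 with quantile normalization, 0.042 with total FPKM rescaled and 0.033 without the male proximal library, and it reached 0.36 without the female distal library. Ndufa4l2, its near-silent relative, held at most 0.105% of the pair's FPKM.

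The remaining low value in complex I, chosen here after its values were seen, was Ndufs5, an accessory subunit. It was at 54.8, 60.8 and 58.6 FPKM in male and 71.5, 50.8 and 31.2 FPKM in female libraries from proximal to distal. The distal minus proximal log2 differences in male and female libraries were 0.10 and -1.17, and the fitted difference of -0.54 ± 0.29 (SE) had an adjusted p of 0.29 in limma. Of its 50-base windows, 31.1% also occur in the processed pseudogene BC002163, so its level is uncertain.

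Complex II carries out a step of the tricarboxylic acid cycle and feeds succinate's electrons into the chain; all 4 of its subunits are nuclear. Its summed FPKM was 1040, 982 and 909 in male and 993, 1034 and 1010 in female proximal, middle and distal libraries. Sdhb, the iron-sulfur subunit, was at 303, 274 and 243 FPKM in male and 310, 301 and 263 FPKM in female libraries in that order. Distal values lay below proximal ones without overlap, and the log2 difference of -0.28 ± 0.11 (SE; interval -0.55 to -0.01) had an adjusted p of 0.16 in limma. Sdha, the flavoprotein whose promoter is printed above, was at 246, 212 and 208 FPKM in male and 216, 213 and 242 FPKM in female libraries. Its ranges overlapped, with a log2 difference of -0.04 ± 0.13 (SE). The membrane anchors Sdhc and Sdhd differed by 0.05 ± 0.10 and -0.02 ± 0.13 (log2 difference ± SE). Sdhc was the steadier of the pair, at 185 to 200 FPKM in the 6 libraries, and Sdhd was at 270 to 335 FPKM.

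Complex III hands electrons from ubiquinol to cytochrome c. Its summed FPKM was 4411, 4119 and 4145 in male and 4391, 4857 and 4678 in female proximal, middle and distal libraries. Uqcrh and Uqcrb, a subunit next to the quinone site, had the highest mean levels, 985 and 816 FPKM. Their distal minus proximal log2 differences were 0.14 ± 0.15 and 0.11 ± 0.14 (SE). Of the 50-base windows of Uqcrb, 43.4% also occur in other genes, among them the processed pseudogene Gm16089, so its level is uncertain. Uqcrq, a small accessory subunit, was lowest in the comparison at 583, 488 and 406 FPKM in male and 512, 511 and 453 FPKM in female libraries. The other 4 libraries were all higher than the distal ones. The log2 difference of -0.35 ± 0.14 (SE) had an adjusted p of 0.17 in limma. Uqcr10, another small subunit, lay at the other end with 0.19 ± 0.14 (SE), at 705, 695 and 780 FPKM in male and 730, 873 and 865 FPKM in female libraries.

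Complex IV, cytochrome c oxidase, is the complex with tissue isoforms, and most of its families were held by the ubiquitous member. Cox4i1, Cox6a1 and Cox8a held over 99.8% of their family's FPKM in every library (lowest shares 99.98, 99.93 and 99.84%), and Cox6b1 held 99.3 to 99.5%, with Cox6b2, known from testis, at 4.59 to 6.93 FPKM. Cox7b held 100% against Cox7b2. The complex's summed FPKM was 10557, 9653 and 9782 in male and 10107, 10757 and 10080 in female proximal, middle and distal libraries.

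Cox4i1, a regulatory subunit, had the lowest distal minus proximal difference in complex IV. It was at 1870, 1353 and 1388 FPKM in male and 1623, 1519 and 1466 FPKM in female libraries. Both proximal libraries were above the other 4, yet the log2 difference of -0.29 ± 0.17 (SE) had an adjusted p of 0.34 in limma.

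The Cox7a family was the exception to dominance by a single gene. Cox7a2, the ubiquitous isoform, held 38.9 to 48.6% of the family's FPKM, Cox7a2l 29.5 to 38.7% and Cox7a1 17.8 to 24.3%. Cox7a2l is known to join complexes III and IV into supercomplexes, and C57BL/6 strains are known to carry a shortened form of it. It was at 247, 264 and 346 FPKM in male and 283, 377 and 392 FPKM in female proximal, middle and distal libraries. Both distal libraries were above both proximal ones. The log2 difference of 0.48 ± 0.13 (SE; interval 0.14 to 0.81) had an adjusted p of 0.078 in limma, with 0.49 in the male and 0.47 in the female libraries. Of its 50-base windows, 17.7% also occur in the processed pseudogene Gm6969. Cox7a2 itself differed by -0.05 ± 0.12 (log2 difference ± SE).

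Cox7a1 is known as the heart and skeletal muscle isoform, yet it was well represented. It was at 184, 186 and 228 FPKM in male and 148, 223 and 203 FPKM in female libraries, and the gene lies on chromosome 7 from 30184144 to 30186078 of mm10 and shares no 50-base window with another gene. Both distal libraries were above both proximal ones, with a log2 difference of 0.38 ± 0.16 (SE) and an adjusted p of 0.19 in limma. Of the 9 smooth and striated muscle markers, 7 were not kept. Myh1 was at 0 in all libraries, Des and Ckm each at 0 in 5 libraries, and Myh11 reached 0.0393 FPKM. Acta1, skeletal actin, was the exception at 68.7 to 139 FPKM, and Tagln was at 4.15 to 7.19 FPKM. The list's summed FPKM was 116 to 130 in proximal, 74.0 to 80.7 in middle and 84.2 to 144 in distal libraries. Cox8b, also a muscle isoform, had 0 FPKM in the 2 proximal libraries and the male distal library, and was at 0.778, 2.50 and 1.87 FPKM in the male middle, female middle and female distal libraries. Its fitted difference has no stable base at such values.

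**Figure D3:**
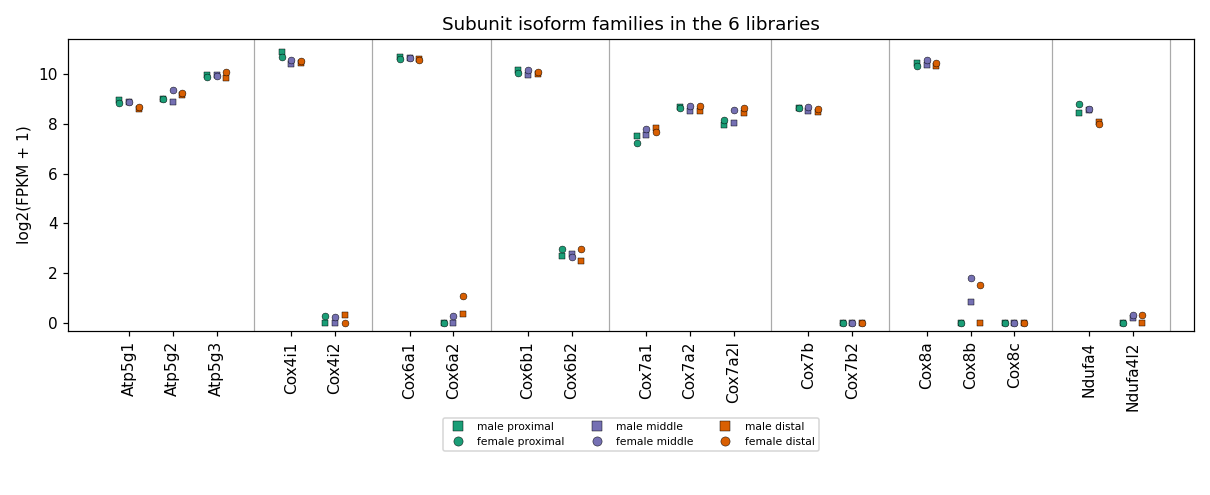
Members of the 8 isoform families on the log2(FPKM + 1) scale, with squares for male and circles for female libraries and 1 colour per region; families are separated by vertical lines. The Atp5g and Cox7a families show 3 members at like height, whereas the other 6 show a single abundant member, with Cox6b2 at 4.59 to 6.93 FPKM and the rest near 0.

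Complex V turns the proton gradient into ATP. Its summed FPKM was 10556, 9956 and 10140 in male and 10398, 11340 and 10974 in female proximal, middle and distal libraries. Atp5b, the catalytic beta subunit, had the highest mean level at 1381 FPKM, and its distal minus proximal log2 difference was 0.01 ± 0.16 (SE). Atp5k, a membrane subunit, followed with a mean of 1056 FPKM and a log2 difference of 0.02 ± 0.15 (SE). Atp5s, known as coupling factor B, was the least abundant with a mean of 7.99 FPKM.

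Atp5g1, Atp5g2 and Atp5g3 encode the same mature ring subunit c from separate genes. Atp5g3 held 46.8 to 51.5% of their summed FPKM, Atp5g2 24.2 to 31.0% and Atp5g1 19.6 to 24.7%. Atp5g1 had the lowest difference in complex V, at 493, 475 and 383 FPKM in male and 458, 466 and 406 FPKM in female proximal, middle and distal libraries. Both distal libraries were below the other 4, and the log2 difference of -0.27 ± 0.12 (SE) had an adjusted p of 0.22 in limma. Atp5g2 differed by 0.17 ± 0.16 and Atp5g3 by 0.02 ± 0.15 (log2 difference ± SE).

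Atp5sl had the highest difference in complex V, although its protein is known from the assembly of complex I. It was at 42.6, 47.4 and 61.1 FPKM in male and 46.8, 54.9 and 59.1 FPKM in female libraries. Both distal libraries were above the other 4. The log2 difference of 0.42 ± 0.11 (SE; interval 0.15 to 0.69) had an adjusted p of 0.059 in limma. With Ndufa4, Ndufa6, Sdhb and Cox7a2l above, and Ndufs6 at -0.29 ± 0.11 (SE), these are the 6 members with an unadjusted p under 0.05.

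**Figure D4:**
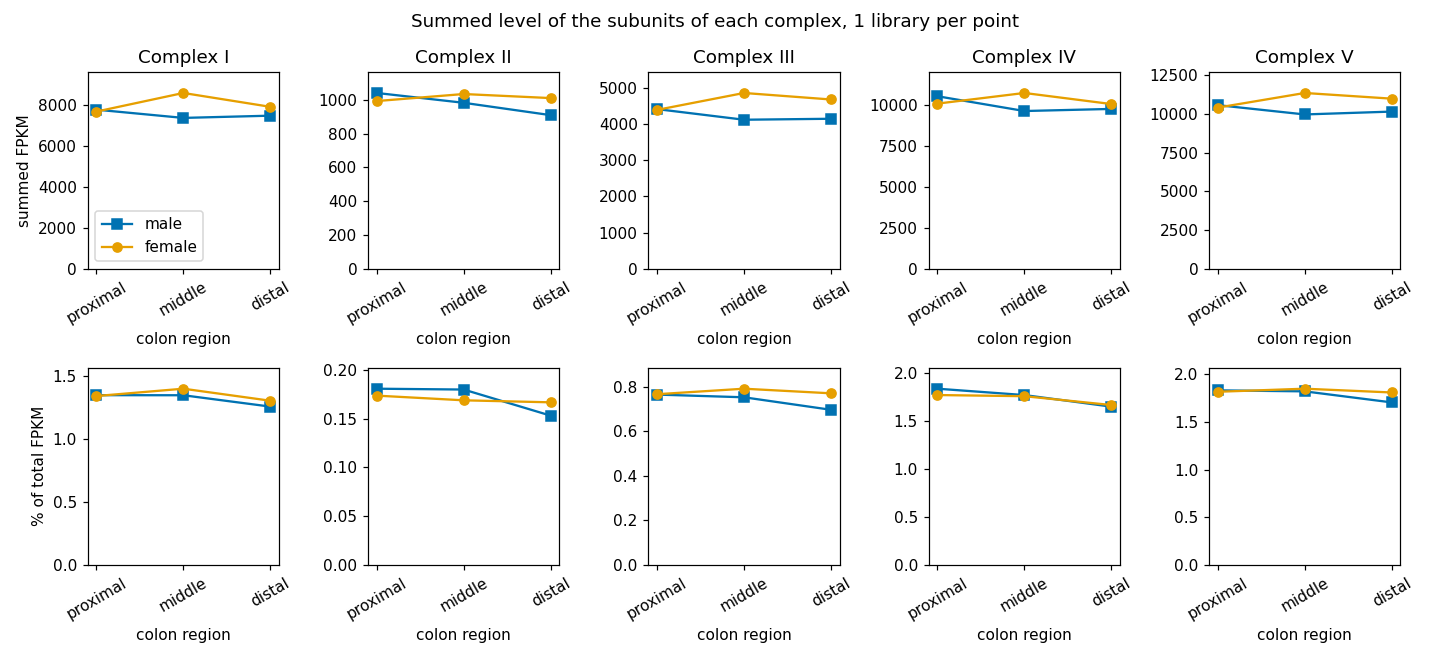
Summed FPKM of the members of each complex (top) and the same as a percentage of the library's total FPKM (bottom), with squares for male and circles for female and 1 library per point. The female middle library is the highest sum in complexes I, III, IV and V, and as a share of the total the male and female middle points of these complexes lie closer together; all 84 genes held 5.46 to 5.97% of a library.

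Female and male libraries were compared as well. limma called 0 of 79 subunits between female and male libraries, where it called 0.0423% of all kept genes, and it marked 2 at an unadjusted p under 0.05, against 10.6%. The median female minus male log2 difference was 0.082 with 66 of 79 above 0, against 50.1% of all kept genes and 60.9% of the 905 abundant ones. It was 0.021 with 47 above 0 when total FPKM was rescaled and 0.015 with 47 above 0 after quantile normalization. By region, the median was -0.036 in proximal colon with 29 of 79 higher in the female, 0.19 in middle colon with 70, and 0.11 in distal colon with 62. The total FPKM was 575799, 546269 and 594157 in male and 571852, 612818 and 606011 in female proximal, middle and distal libraries, so the totals were also higher in the female middle and distal libraries. The part of the totals in the sex difference was not tested beyond the rescaling. Estimated depth was 8.07, 7.865 and 7.81 M fragments in male and 8.89, 9.795 and 9.89 M in female proximal, middle and distal libraries. Every female library was thus deeper than every male one, and the part of depth in the sex difference was not tested.

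Genes that serve the chain without being counted among its subunits were read from lists. Of 106 kept genes on these lists, 11 (10.4%) passed the test for distal against proximal colon (4 were higher in distal colon, 7 were lower), against 14.1% of all kept genes, so the share is no result about these genes as a set and single genes are described. Mitochondrial DNA-coded subunits were not analysed here. Of 14 kept complex I assembly factors limma called 0 between distal and proximal colon, with a median log2 difference of 0.04. Ecsit, 1 of these factors, differed by 0.07 ± 0.11 (SE), with an adjusted p of 0.73. Of 31 kept assembly and regulatory factors of complexes II to V it called 1 higher and 2 lower in distal colon, with a median of -0.086. Over all kept genes 6.47% were called higher and 7.64% lower.

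Sdhaf3, which helps place iron-sulfur clusters in Sdhb, was at 3.59, 8.31 and 10.2 FPKM in male and 5.78, 10.8 and 14.5 FPKM in female proximal, middle and distal libraries. It rose in distal colon by 1.24 ± 0.12 on the log2 scale (SE; adjusted p 0.0047, limma) and in middle colon by 0.91 (adjusted p 0.032). Its substrate subunit Sdhb had, as given above, lower values in the distal libraries without passing the test. Atpif1, the inhibitor that keeps ATP synthase from running backwards, was at 162, 108 and 93.3 FPKM in male and 151, 119 and 100 FPKM in female libraries. It fell by 0.69 ± 0.11 in distal colon (SE; adjusted p 0.016, limma), while the 17 complex V genes had 0 calls. Coa3, which binds newly made complex IV subunits, fell by 0.46 ± 0.11 (SE; adjusted p 0.049, limma), and Cox17, a copper chaperone for complex IV, differed by 0.15 ± 0.16 with an adjusted p of 0.58.

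Among 10 carriers and subunits outside the symbol rule, limma called 0 higher and 2 lower in distal colon, and the list's median log2 difference was -0.22. Slc25a4, an ADP/ATP carrier best known from muscle and heart, was at 19.2, 20.9 and 7.31 FPKM in male and 23.0, 19.0 and 8.80 FPKM in female proximal, middle and distal libraries. Proximal and middle values lay together and both distal ones were far below. It fell by 1.29 ± 0.13 from proximal to distal colon (SE; adjusted p 0.0056, limma) and by 1.21 from middle to distal (adjusted p 0.041). Slc25a5, the carrier's more abundant relative, was at 1418 to 1881 FPKM with a distal minus proximal log2 difference of 0.32 ± 0.17 (SE; adjusted p 0.28). Etfb, a subunit of the electron transfer flavoprotein that brings electrons from fatty acid oxidation, fell by 0.46 ± 0.11 (SE; adjusted p 0.045, limma).

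Among 18 kept regulators of mitochondrial biogenesis, 2 rose and 2 fell in distal colon, and the list's median log2 difference was 0.019. Ppargc1a, the coactivator PGC-1 alpha, was at 8.56, 13.9 and 19.1 FPKM in male and 11.1, 17.0 and 20.0 FPKM in female proximal, middle and distal libraries, and rose by 0.93 ± 0.12 on the log2 scale (SE; adjusted p 0.0086, limma). Esrrg, the estrogen-related receptor gamma, was at 0.392, 3.27 and 7.06 FPKM in male and 0.977, 4.90 and 5.24 FPKM in female libraries. It rose by 2.1 ± 0.26 in distal and 1.60 in middle colon (adjusted p 0.0081 and 0.048, limma). Both proximal libraries were under 1 FPKM, where this scale understates a change. Ppara, a nuclear receptor for fatty acids, was at 26.5, 6.37 and 3.36 FPKM in male and 14.4, 5.25 and 4.49 FPKM in female libraries, and it fell by 2.07 ± 0.27 (SE; adjusted p 0.0098, limma). Its relative Pparg fell by 1.08 ± 0.19 (SE; adjusted p 0.022, limma). Nrf1, Gabpa, Yy1 and Esrra encode factors, or members of factor families, known to read the 4 motifs searched, and were chosen here for that reason. Their distal minus proximal log2 differences were 0.09 ± 0.12, 0.20 ± 0.11, 0.10 ± 0.13 and 0.00 ± 0.12 (SE), with adjusted p of 0.69, 0.31, 0.67 and 1.0 in limma.

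In the tricarboxylic acid cycle, 1 of 14 kept genes was called between distal and proximal colon, with a median log2 difference of -0.061. Cs, citrate synthase, was at 262, 359 and 433 FPKM in male and 315, 371 and 446 FPKM in female proximal, middle and distal libraries. Values were lowest in proximal and highest in distal colon in both sexes, and Cs rose by 0.61 ± 0.12 on the log2 scale (SE; adjusted p 0.030, limma). Mdh2, malate dehydrogenase, differed by -0.05 ± 0.13 (SE; adjusted p 0.85). Of 19 kept import and contact site genes, 0 were called higher and 1 lower, with a median of -0.015. Hspd1, the mitochondrial chaperonin, fell by 0.60 ± 0.11 (SE; adjusted p 0.023, limma), from 180 FPKM (male) and 179 FPKM (female) in proximal libraries to 114 and 123 FPKM in distal ones. Vdac1, the outer membrane channel, differed by 0.37 ± 0.11 (SE; adjusted p 0.096).

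Leaving out the male distal library, which leaves 1 distal library, removed most of these 11 calls, as it did most calls over all genes. Without it, Sdhaf3, Esrrg and Ppara were still called in limma (adjusted p 0.045, 0.042 and 0.042), while Slc25a4, Ppargc1a and Pparg had adjusted p of 0.050, 0.085 and 0.098. Atpif1, Hspd1, Cs, Etfb and Coa3 then had adjusted p of 0.17, 0.25, 0.30, 0.36 and 0.39. Other libraries left out singly also ended some of these calls. With all 6 libraries, Coa3 and Etfb were not called in limma without the filter on low values (adjusted p 0.067 and 0.062). The same held without the variance trend (adjusted p 0.073 and 0.063, limma). It also held at a mean of at least 5 FPKM (0.057 and 0.053) and without the sex term (0.057 and 0.11). Pparg and Cs were not called without the filter (adjusted p 0.057 and 0.059, limma). All 11 genes kept their direction between distal and proximal colon under each alternative run that tested them. Esrrg was not tested in the run that kept genes with a mean of at least 5 FPKM. For middle against proximal colon limma called 0 genes of the whole table without the female middle library, and for distal against middle 0 without the male distal library, so the calls of Sdhaf3, Esrrg and Slc25a4 in those comparisons end there.

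**Figure D5:**
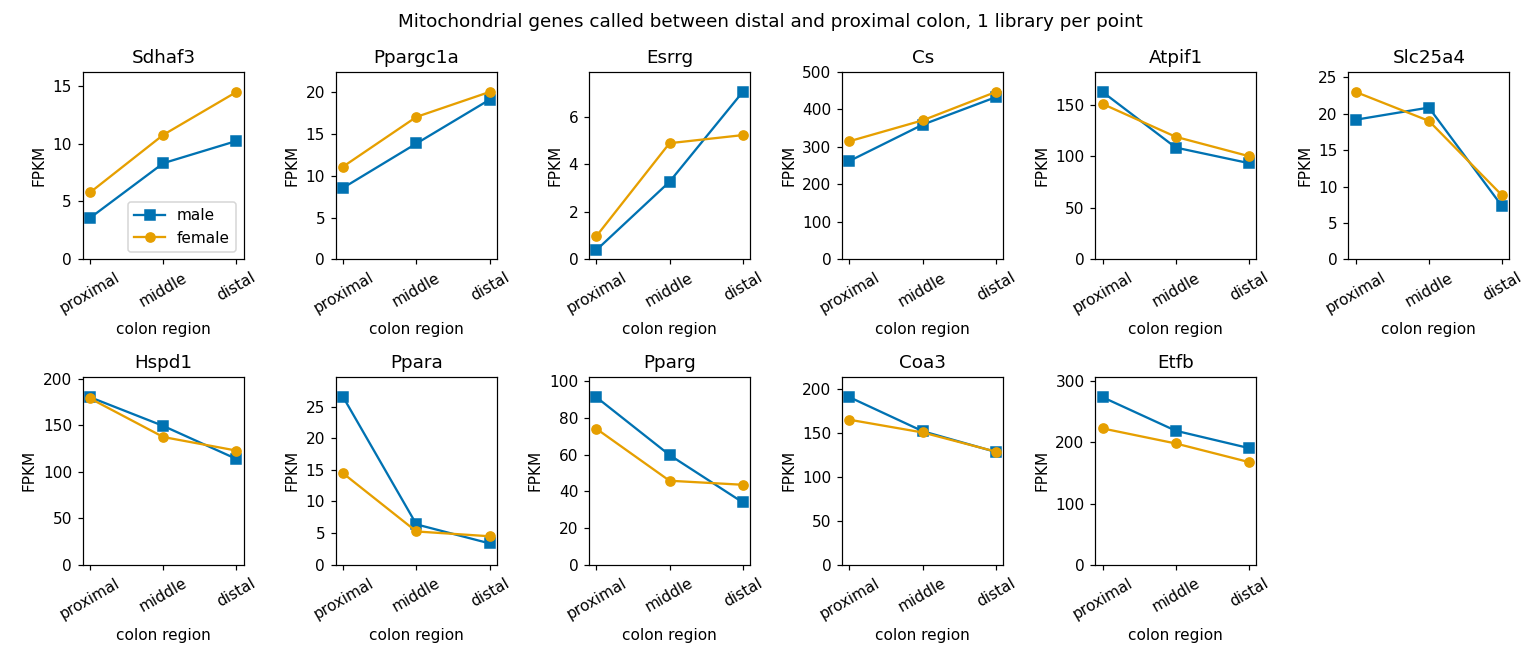
FPKM of the 11 listed mitochondrial genes called between distal and proximal colon, from proximal to distal, with squares for male and circles for female and 1 library per point; each vertical axis starts at 0 and has its own range. Sdhaf3, Ppargc1a, Esrrg and Cs are higher in both distal than in both proximal libraries, and the other 7 are lower; Slc25a4 stays near 20 FPKM until middle colon.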

How the data were processed

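Polyadenylated RNA of 6 libraries was made into strand-specific libraries, per the labels' protocols. The authors deposited gene-level FPKM. The submitters' processing notes name TopHat2 2.1.1, Bowtie2 2.2.8, SAMtools 0.1.18, Cuffdiff 2.2.1 and mm10; the sources used here do not give settings, annotation or use of strand. Count models do not suit FPKM and were not used; a listed 0 can be a failed estimate.

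Groups came from the labels. Values were analysed as log2(FPKM + 1) after keeping genes with at least 1 FPKM in at least 2 libraries. limma 3.58.1 in R 4.3.3 fitted region and sex over all 6 libraries, with variances moderated along the mean, 2 residual and a median of 3.49 prior degrees of freedom. P-values were adjusted by the Benjamini-Hochberg method over all 11815 kept genes within each of 4 comparisons. Region by sex leaves 0 residual degrees of freedom and was not fitted. The code was tested on simulated data. Because sex is a term, same-sex libraries are matched across regions; the labels do not say that they share mice.

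The members and gene lists were chosen with earlier results of these data known. Genes named by rule were, per complex, those with the 2 highest mean levels and the extreme distal minus proximal differences, all Sdh genes, isoform families, members that failed the filter and up to 4 genes per list. Depth was estimated from the spacing of values under 0.2 FPKM in transcripts over 1500 bases, assuming 200-base fragments, and is approximate. Positions and shared 50-base windows came from GENCODE M21 (83 of 84 members matched), promoters from RefSeq GRCm38.p6 (69 matched, 3 by an older symbol). Alternatives changed the pseudocount, filter, scaling, variance model, sex term and libraries; rescaling to a common total FPKM was chosen after seeing the data.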

Additional observations from a re-analysis of the deposited data

Results flagged for a closer look

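With 1 library per sex and region, the median regional log2 difference of a complex had opposite signs in the male and female libraries in 12 of the 15 combinations of complex and comparison. These differences between the sexes were not tested, since no residual degrees of freedom remain. The 15 combinations share the same 6 libraries and are not independent. Over all kept genes, the male and female medians were 0.0063 and 0.0098 for distal minus proximal. They were -0.00084 and -0.0026 for middle minus proximal, and 0.0051 and 0.0025 for distal minus middle. For distal minus proximal, the female median exceeded the male one by 0.15 in complex I (male -0.077, female 0.076), 0.32 in complex II, 0.33 in complex III (male -0.18, female 0.15), 0.10 in complex IV and 0.20 in complex V on the log2 scale. For middle minus proximal, it exceeded it by 0.24 in complex I, 0.24 in complex III, 0.13 in complex IV and 0.22 in complex V. For distal minus middle, female minus male was -0.11 in complex I, -0.089 in complex IV and -0.068 in complex V. After rescaling each library to the same total FPKM, 7 of these 12 pairs shared a sign, and 7 of all 15 were opposite. The pairs that then shared a sign were complexes I and IV for distal minus proximal, I and IV for middle minus proximal, and I, IV and V for distal minus middle.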

How the results depend on the processing

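Over all alternatives, the count of called subunits stayed at 0 except in 4 cases. For distal minus proximal it was 1 (Ndufa4) with quantile normalization, 1 (Ndufa4) with total FPKM rescaled and 3 (Cox8b, Ndufa4 and Ndufs5) without the male proximal library, so counts without 1 library ran from 0 to 3; for middle minus proximal they ran from 0 to 1 (Cox8b, again without the male proximal library). Of the complex medians, 260 values under alternatives moved by less than a reference spread and 20 by more. For regional comparisons that spread was the standard deviation of the male and the female median. For female minus male it was the standard deviation over the medians of the 3 regions. Quantile normalization gave distal minus proximal medians of -0.16 (complex IV) and -0.12 (V), distal minus middle -0.052 (III), -0.10 (IV) and -0.064 (V), and female minus male -0.091 (IV) and -0.042 (V). Rescaling gave distal minus middle -0.058 (III) and -0.053 (V). The cause was not tested. Without 1 library, the distal minus proximal median of complex I ran from -0.100 to 0.11 and the middle minus proximal median of complex II from -0.073 to 0.024; distal minus middle medians ran from -0.12 to 0.035 (I), -0.14 to 0.015 (II), -0.096 to 0.056 (III), -0.12 to 0.032 (IV) and -0.080 to 0.045 (V). In the fit without the replicate block (sex left out), 0 subunits were called in each regional comparison; the labels carry no replicate numbers, and sex is the only match between libraries. Of 375 differences of named subunits per comparison, the sign changed in 28, 42, 41 and 38 (in the order distal minus proximal, middle minus proximal, distal minus middle, female minus male), none of them called. Calls over all genes in distal against proximal colon were 1668, and 334 and 779 without the male or female distal library. In all, 25 members share exon bases with a gene on the opposite strand, and use of strand in counting is not given.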
